A study of Arabidopsis thaliana with 10 samples.

Results

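Ectopic expression of RTL1 in Arabidopsis pollen was examined here as one experiment, with both RTL1 constructs pooled against WT Col-0. The 4 RTL1 libraries, from pLAT52::RTL1 and pMGH3::RTL1 pollen, formed one group and the 2 WT Col-0 libraries the other, so 6 of the 10 small RNA libraries of the series were compared. All 6 came from open-flower pollen of Col-0 plants, and all carried the endogenous RTL1 gene. Both constructs carry the genomic sequence of RTL1 with a Myc tag. In pLAT52::RTL1 it is driven by the LAT52 promoter, active from the late microspore and then mainly in the vegetative cell. In pMGH3::RTL1 it is driven by the MGH3 promoter, active in the male germline. The 2 libraries of a construct came from independent homozygous transgenic lines, while the origin of the 2 WT Col-0 libraries is not given in the sources used here, so p-values measure only the spread between these libraries. The remaining 4 libraries were from pollen of double heterozygous plants sorted by DsRed fluorescence into wild-type (WT FTL) and Pol IV mutant (nrpd1a-3 FTL) grains, and were used only where the loci found in RTL1 pollen were looked up in them.

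RTL1 is an RNase III enzyme of Arabidopsis that cuts long double-stranded RNA, the substrate from which Dicer-like enzymes make siRNAs. Pol IV, with NRPD1a as its largest subunit, makes the precursors of the 24-nt siRNAs that guide DNA methylation at transposable elements (TEs). MicroRNAs are cut by DCL1 from short hairpins with mismatches and are mostly 21 nt long, and tasiRNAs of TAS genes form from transcripts that a microRNA has cut. Plant microRNAs pair with their targets along most of their length. Bases 2 to 8 from the 5′ end, called the seed, are used here only to group related microRNAs. In pollen, TEs are expressed in the vegetative cell and are a main source of siRNAs.

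Signal is given in RPM, as deposited, where a read with several genomic matches counts in part at each, and was summed over lengths of 18 to 30 nt for each locus. Of 33217 loci listed in the 6 libraries, 11586 averaged 12 or more hit-weighted reads over these libraries and were tested. Every locus was then placed by a plain rule. It was counted as above if all 4 RTL1 libraries lay over both WT Col-0 libraries, and as below if all 4 lay under both. This gave 1886 loci above (16.3% of those tested), 838 below (7.23%) and 8862 in neither set. Reads that match several genes equally give groups of loci with the same values, and 1870 loci above and 830 below were distinct. The rule used the signal of these 6 libraries, so the side of a locus is a description and not a test. If the 6 libraries were interchangeable, 1 of their 15 arrangements (a share of 0.0667) would place a locus below, and the same share above. The 7.23% below is close to that share. Loci are not independent of each other, so neither share was tested against it.

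The sequences of microRNAs from the genes described most closely below are given first, the miR399 family because its genes make near-identical RNAs and were not all on one side. They are mature sequences from RefSeq on TAIR10.1, 5′ to 3′, with the seed in capitals. The genes MIR399f and MIR399d lay below WT Col-0, MIR399b lay above it under 2 of the 5 scalings described further on, and MIR399a and MIR399c were in neither set, although the mature RNAs share the seed GCCAAAG. Sides are those of gene totals over all lengths and not of single mature RNAs. From miR399f, miR399a and miR399d each differ by 1 base and miR399b by 2. miR399b and the 3′ product of miR399c are the same sequence, so reads of it are shared out between both genes, and their sides do not tell the RNAs apart. The genes lie on chromosome 2 (miR399f at chr2:14445084-14445104, plus strand, and miR399d at chr2:14442988-14443008, minus strand), chromosome 1 (miR399a at chr1:10227165-10227185, plus strand, and miR399b at chr1:23345387-23345407, minus strand) and chromosome 5 (miR399c at chr5:24962568-24962588, plus strand).
miR399f: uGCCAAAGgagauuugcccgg
miR399d: uGCCAAAGgagauuugccccg
miR399a: uGCCAAAGgagauuugcccug
miR399b: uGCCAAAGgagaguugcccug
miR399c-3p: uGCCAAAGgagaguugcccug

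The next sequences are annotated products of the 5 microRNA genes above WT Col-0 with the widest gaps, and share no seed with each other. They are miR859 (chr1:22149735-22149755, plus strand), miR846-3p (chr1:22577662-22577682, plus strand), miR860 (chr5:9098876-9098896, plus strand), miR835-5p (chr1:28544784-28544804, minus strand) and miR858a (chr1:26773695-26773715, minus strand). The 5′ products of MIR396a (chr2:4142443-4142463, minus strand) and MIR396b (chr5:13611808-13611828, plus strand) are shown with them because both genes of this seed lay above.
miR859: uCUCUCUGuugugaagucaaa
miR846-3p: uUGAAUUGaagugcuugaauu
miR860: uCAAUAGAuuggacuauguau
miR835-5p: uUCUUGCAuauguucuuuauc
miR858a: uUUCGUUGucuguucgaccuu
miR396a-5p: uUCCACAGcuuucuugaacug
miR396b-5p: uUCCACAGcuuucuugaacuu

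The libraries differed in depth and makeup. One read was worth between 0.430 and 1.46 RPM, and rRNA genes held between 27.4% and 42.7% of the listed signal. The listed signal summed to 3743341 RPM in WT Col-0 replicate 1 and 6817523 RPM in replicate 2, and to between 5215729 and 8672909 RPM in the RTL1 libraries. RNAs of 25 to 30 nt held 5.23% and 2.31% of the signal in WT Col-0 and 12.2%, 5.01%, 11.3% and 4.17% in the RTL1 libraries. The part of these differences in the results below was not tested.

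RTL1 itself was the check of the labels. Its locus (AT4G15417, chr4:8821651-8823076) gave 4.30 and 11.9 RPM in WT Col-0, 93.7 and 23.8 in pLAT52::RTL1 and 1023 and 302 in pMGH3::RTL1 pollen. All 4 RTL1 libraries lay above both controls, and pMGH3::RTL1 lay highest. The fold between group means was 44.5, with log2 difference 4.31 ± 1.19 (SE) in the pooled fit. With separate constructs (limma) this difference was 6.07 in pMGH3::RTL1 (adjusted p = 0.0096) and 2.55 in pLAT52::RTL1 pollen (adjusted p = 0.138). The pooled fold was thus mostly that of pMGH3::RTL1 pollen. The values are of small RNAs matching the RTL1 locus and not RTL1 mRNA, and reads of the transgene and of the endogenous gene cannot be told apart. The sorted WT FTL pollen, without a construct, had 6.67 and 0 RPM.

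No locus passed limma in the pooled comparison at a Benjamini-Hochberg adjusted p of 0.05. The lowest adjusted p was 0.209, and 0 of 11586 loci were raised (0%) or reduced (0%). At an unadjusted p under 0.05, 1377 loci lay higher (11.9%) and 109 lower (0.941%). Which direction had more loci depended on the scaling. Higher and lower loci were 1144 and 222 by the median ratio, but 164 and 655 scaled to summed signal. They were 288 and 1099 without structural RNA and 126 and 2038 scaled to microRNA genes. In the pooled fit the difference between constructs counts as spread. When the constructs were fitted as groups of their own and the mean of their effects was set against WT Col-0, 147 loci were raised (1.27%) and 18 reduced (0.155%). These calls, and the adjusted p-values beside named loci below, rest on all 4 RTL1 libraries. Without any 1 of these the fit gave 0 raised and 0 reduced, and 0 of the 27 named loci that passed still did, with 1 library then standing for its construct. Without WT Col-0 replicate 1 it gave 90 and 10, and without WT Col-0 replicate 2 it gave 1197 and 51. Scaling moved it between 52 and 159 raised and between 18 and 819 reduced. Calls per construct moved as much, from 189 raised and 18 reduced loci in pLAT52::RTL1 pollen to between 1 and 755 and between 0 and 104 without 1 library, and from 55 and 111 in pMGH3::RTL1 pollen to between 0 and 1340 and between 1 and 223. The words rose and fell are used below for the fit with separate constructs as it stands with all 6 libraries. This fit was an alternative to the planned pooled test, and its mean can be carried mostly by 1 construct, as at CHX2 below. Of the 11586 loci, 18 were called raised and 1 reduced in each construct separately. Over the scalings these counts lay between 5 and 20 raised and between 1 and 43 reduced. The raised count changed more without any 1 library than under any scaling. It was lower without any 1 of the 4 RTL1 libraries and higher without either WT Col-0 library. Of the 147 raised, 137 were in the set above, whereas only 1 of the 18 reduced, MIR399f, was in the set below. The raised loci were 123 protein-coding genes, 16 microRNA genes, 3 snoRNA genes, 2 tRNA genes, 1 pseudogene, 1 other RNA gene and 1 TE gene. The reduced ones were 9 TE genes, 7 protein-coding genes, 1 pseudogene and MIR399f.

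In the values as deposited, the gaps between the groups were wider above than below. Gaps were not measured under the other scalings described next, which shift the groups against each other. Measured on the log2(signal + 1) scale from the nearest RTL1 to the nearest WT Col-0 library, the median gap was 0.27 above and 0.11 below. Of the loci above, 403 had a gap under 0.1 (21.4%), 467 of at least 0.5 and 61 of at least 1. Of the loci below, 391 had a gap under 0.1 (46.7%), 12 of at least 0.5 and 1 of at least 1. At a mean of at least 1000 RPM, the locus just inside the set above was MIR778, with 15699.6 and 11397 RPM in WT Col-0 and a lowest RTL1 value of 15706. The TE gene AT3G29540 fell just outside, with 4122 RPM as the higher WT Col-0 value and 4061 as the lowest RTL1 value. Just inside the set below was the TE gene AT2G10600, with 2108 RPM as the lower WT Col-0 value against a highest RTL1 value of 2066. AT4G05585 lay just outside, with 1789 RPM in the lower control and 1810 in the highest RTL1 library.

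The size of each set depended on the quantity that the libraries were scaled to. As deposited, the median log2 difference over all tested loci was 0.07. Scaled to the median ratio over loci, it was -0.01, with 1609 loci above and 1265 below. Scaled to the summed signal, it was -0.38, with 508 above and 1470 below. The remaining choices were the summed signal without structural RNAs (median -0.33, 637 above, 2290 below) and the summed signal of microRNA genes (median -0.46, 353 above, 3196 below). A smaller group of loci was on one side under all 5 scalings, an intersection added after the values were seen. It held 251 loci above (2.17%) and 418 below (3.61%). Those above were 181 protein-coding, 30 tRNA, 26 microRNA, 5 snoRNA and 5 other RNA genes, 3 pseudogenes and 1 TE gene. Those below were 259 TE genes, 138 protein-coding genes, 17 pseudogenes, 2 microRNA genes and 2 other RNA genes.

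**Figure D1:**
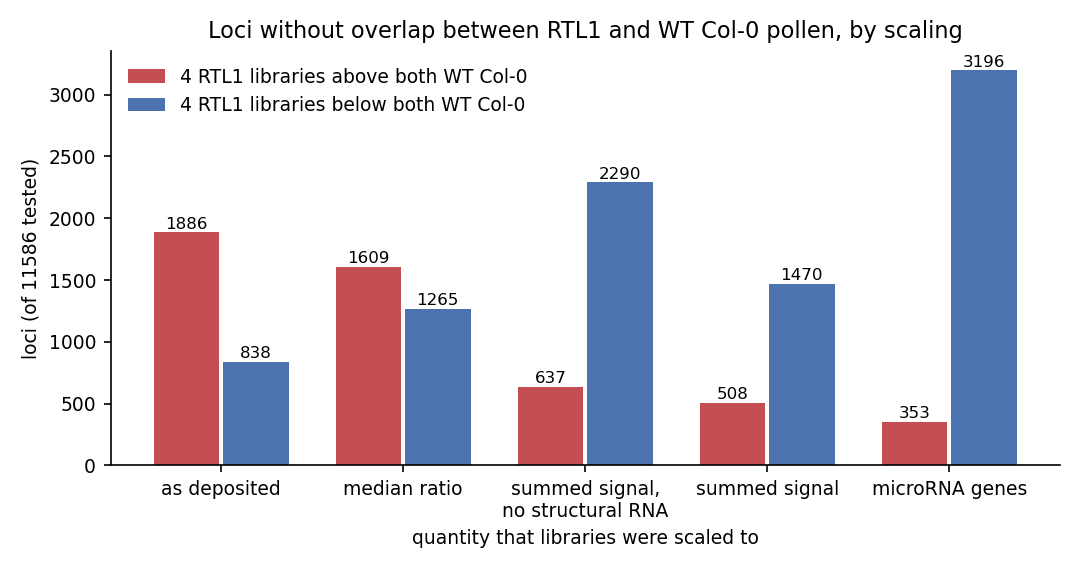
Number of tested loci (y axis) at which all 4 RTL1 libraries lay above (red) or below (blue) both WT Col-0 libraries, by the quantity that libraries were scaled to (x axis). Loci above outnumbered those below as deposited (1886 and 838) and by the median ratio (1609 and 1265), and the order was opposite under the other 3 scalings.

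The sets differed in the kind of locus they held. Protein-coding genes made up 80.0% of the loci above and TE genes 67.9% of those below. Of 3537 TE genes tested, 569 lay below (16.1%) and 88 above (2.49%), with a median log2 difference of -0.21. Of 6802 protein-coding genes, 1508 lay above (22.2%) and 232 below (3.41%), with a median of 0.27. MicroRNA genes had the highest share above, with 80 of 143 (55.9%) and 3 below (2.1%), at a median of 0.84. snoRNA genes followed with 18 of 44 above (40.9%) and 0 below, at a median of 1.03. Of 606 tRNA genes, 113 lay above (18.6%) and 0 below. Pseudogenes were split between 47 above and 30 below of 334, and of 103 other RNA genes 25 lay above and 4 below. Of 13 snRNA genes 7 lay above, and of 4 rRNA genes 0 lay in either set.

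A scaling shifts all loci alike, so it moves the class medians together. The medians of protein-coding, tRNA and other RNA genes changed sign among the scalings. The median of TE genes ranged from -0.21 as deposited to -0.76 scaled to microRNA genes, and that of microRNA genes from 0.84 to 0.28. The median of protein-coding genes was 0.27 as deposited and 0.19 by the median ratio, but -0.13, -0.17 and -0.25 under the remaining scalings. Scaled to microRNA genes, 57.6% of TE genes lay below and 1 lay above, and 14.9% of protein-coding genes lay below against 3.97% above.

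**Figure D2:**
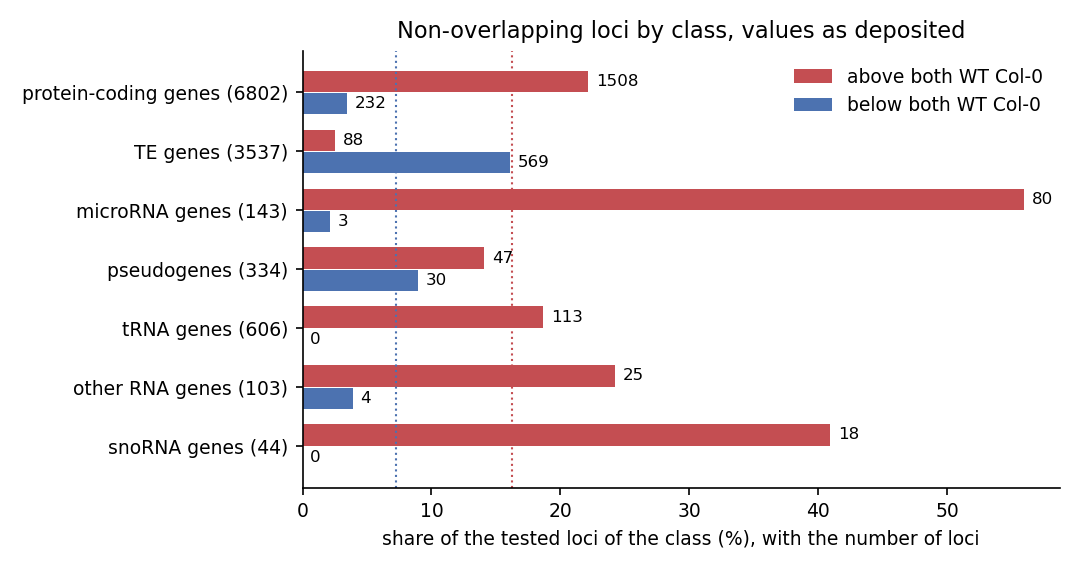
Share of the tested loci of each class (x axis, %) that lay above (red) or below (blue) both WT Col-0 libraries in all 4 RTL1 libraries, with the number of loci at each bar and the number tested in the class label. Dotted lines mark the shares over all tested loci, 16.3% above and 7.23% below, and 55.9% of microRNA genes lay above against 2.49% of TE genes.

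As one value per library, microRNA genes summed to 930380 and 1168816 RPM in WT Col-0 and to between 1187761 and 1909830 RPM in the RTL1 libraries, a log2 difference of 0.56. The groups did not overlap. An exact two-sided permutation test gave p = 0.133. TE genes summed to 500790 and 511428 RPM in WT Col-0 and to between 453554 and 473221 RPM in RTL1 pollen, a log2 difference of -0.13. An exact two-sided permutation test gave p = 0.0667, the smallest that the 15 arrangements of 4 against 2 libraries can give, so neither sum could pass 0.05.

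Of the 10 widest gaps above, 2 were at microRNA genes, MIR859 and MIR846. MIR859 (AT1G60072) gave 1642 and 1861 RPM in WT Col-0, 4807 and 5284 in pLAT52::RTL1 and 4804 and 5796 in pMGH3::RTL1 pollen. Its RTL1 libraries lay close together, at 2.95 times the control mean. It rose in the fit with separate constructs (log2 1.56, adjusted p = 0.0375, limma), with 1.53 in pLAT52::RTL1 (adjusted p = 0.0406) and 1.59 in pMGH3::RTL1 (adjusted p = 0.0406). The per-construct values share the WT Col-0 libraries, here and below.

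MIR846 (AT1G61226) gave 117 and 128 RPM in WT Col-0, 329 and 388 in pLAT52::RTL1 and 477 and 427 in pMGH3::RTL1 pollen. Both products of its hairpin, miR846-3p and miR846-5p, have seeds found at no other microRNA gene of the RefSeq table. The gene rose by 1.70 on the log2 scale (adjusted p = 0.0147 with separate constructs). MIR858a (AT1G71002), whose microRNA targets MYB transcription factors of phenylpropanoid metabolism, gave 333 and 400.0 RPM in WT Col-0, 893 and 1208 in pLAT52::RTL1 and 2189 and 1044 in pMGH3::RTL1 pollen. Its highest value, in pMGH3::RTL1 replicate 1, was well over the other RTL1 libraries, and its adjusted p with separate constructs was 0.0456.

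Some of these microRNA genes lie inside other genes, whose signal then contains theirs. MIR860 (AT5G26038, chr5:9098791-9098916) lies within FC1, the gene of a ferrochelatase of heme synthesis. It gave 27.5 and 23.3 RPM in WT Col-0, 70.6 and 90.6 in pLAT52::RTL1 and 106 and 134 in pMGH3::RTL1 pollen. FC1 gave 40.9 and 37.4 RPM in WT Col-0, 90.4 and 115 in pLAT52::RTL1 and 151 and 179.7 in pMGH3::RTL1 pollen. The signal of FC1 is thus mostly that of MIR860, and its 21-nt share of 84.6% in RTL1 pollen was near the 94.7% of MIR860. MIR835 (AT1G76062) in the same way lies within AT1G76065, the gene of an LYR family protein. MIR835 gave 159 and 128 RPM in WT Col-0, 702 and 659 in pLAT52::RTL1 and 359 and 386 in pMGH3::RTL1 pollen. It rose by 2.24 in pLAT52::RTL1 (adjusted p = 0.00544) and by 1.37 in pMGH3::RTL1 pollen (adjusted p = 0.0271). Its reads were of several lengths, with 22 nt at 50.4% and 24 nt at 16.4% in RTL1 pollen. MIR835 was above under 4 of the 5 scalings, and MIR859, MIR846, MIR860 and MIR858a under all 5.

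Genes with the same seed are given next, to be read against the 55.9% of all microRNA genes above. The families were chosen after their values were seen, and the sharing of a side was not tested. MIR396a and MIR396b, whose microRNA targets growth-regulating factors (GRFs), both lay above under all 5 scalings. MIR396a gave 119 and 163 RPM in WT Col-0 and between 344 and 404 in RTL1 pollen. MIR396b gave 375 and 356 RPM in WT Col-0 and between 808 and 1227 in RTL1 pollen. They rose by 1.39 (adjusted p = 0.0310) and 1.43 (adjusted p = 0.0280) with separate constructs.

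MIR171b and MIR171c, with the seed UGAGCCG of a microRNA that targets GRAS family transcription factors, make the same mature 3′ sequence and therefore share their reads. MIR171b gave 1394 and 1654 RPM in WT Col-0 and between 3267 and 5090 in RTL1 pollen. MIR171c had nearly the same values, from 1459 and 1736 RPM to between 3362 and 5137. MIR158a gave 4400 and 9931 RPM in WT Col-0, 18292 and 24693 in pLAT52::RTL1 and 27442 and 27348 in pMGH3::RTL1 pollen. The WT Col-0 libraries differed more than 2-fold at MIR158a, and its adjusted p with separate constructs was 0.0721. All members tested also lay above for MIR447a to MIR447c, MIR397a and MIR397b, MIR390a and MIR390b, MIR394a and MIR394b, MIR162a and MIR162b, and MIR170 with MIR171a. Of 9 MIR165 and MIR166 genes 7 lay above, of 8 genes with the MIR156 seed 5 did, and of 5 MIR172 genes 2 did. None of the MIR157a to MIR157c, MIR159, MIR160, MIR167, MIR168, MIR395 and MIR398 genes tested lay in either set, nor did MIR169d, MIR169f and MIR169g. In any of these families, genes that make the same mature RNA share its reads, as MIR170 and MIR171a do for their 5′ product. Such genes are not separate observations.

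The most abundant microRNA genes above did not pass the test. MIR845a (AT4G23387), whose microRNA in pollen is known to target the primer binding site of LTR retrotransposons, gave 434917 and 382206 RPM in WT Col-0, 450840.0 and 602600.0 in pLAT52::RTL1 and 617411 and 859267 in pMGH3::RTL1 pollen. The gap was 0.05 on the log2 scale, and MIR845a was above under 1 of the 5 scalings only. MIR845b, which makes the 22-nt member of the pair, gave 24313 and 22655 RPM in WT Col-0 and between 34990 and 56657 in RTL1 pollen. MIR773a gave 43119 and 50319 RPM in WT Col-0 and between 78092 and 114428 in RTL1 pollen. Their gaps were 0.53 and 0.63, their adjusted p with separate constructs was 0.243 and 0.327, and both were above under 2 of the 5 scalings.

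MIR399f was the one locus below with a gap over 1 and the one below that was also reduced with separate constructs. The miR399 family is induced by phosphate starvation and targets PHO2, which limits phosphate uptake. MIR399f (AT2G34208) gave 1117 and 1161 RPM in WT Col-0, 228 and 233 in pLAT52::RTL1 and 346 and 529.6 in pMGH3::RTL1 pollen. The controls were close to each other and all RTL1 libraries were well under them, at a mean 3.41-fold lower. In the pooled fit the log2 difference was -1.85 ± 0.38 (SE, unadjusted p = 0.000823). It fell by 2.30 in pLAT52::RTL1 (adjusted p = 0.00834), by 1.41 in pMGH3::RTL1 (adjusted p = 0.0448) and by 1.85 as the mean of both (adjusted p = 0.0227). The adjusted p for the mean of both passed 0.05 under the 4 other scalings and without either WT Col-0 library, and was up to 0.183 without an RTL1 library. MIR399f lay below under all 5 scalings, and 21-nt RNAs held 94.7% of its signal in WT Col-0 and 93.8% in RTL1 pollen. The sorted WT FTL pollen, also without a construct, had 11.1 and 31.6 RPM, which is under every RTL1 library.

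MIR399d, less than 3 kb away, gave 23.3 and 19.6 RPM in WT Col-0, 4.03 and 1.53 in pLAT52::RTL1 and 13.9 and 11 in pMGH3::RTL1 pollen. Its lowest value rests on 1.60 hit-weighted reads. It fell by 2.65 in pLAT52::RTL1 pollen (adjusted p = 0.0411), whereas the log2 difference in pMGH3::RTL1 pollen was -0.74 (adjusted p = 0.421). MIR399a, 1 base away in sequence, gave 785 and 1259 RPM in WT Col-0, 1094 and 1378 in pLAT52::RTL1 and 2133 and 2151 in pMGH3::RTL1 pollen, and its groups overlapped. MIR399b gave 18.5 and 17.3 RPM in WT Col-0 and between 21.9 and 43.5 in RTL1 pollen. MIR399c, with the same mature sequence, gave 18.5 and 19.5 RPM in WT Col-0 and between 19 and 39.3 in RTL1 pollen, with overlap. The members thus did not move as one family. MIR416, the remaining microRNA gene below, gave 24.5 and 22.2 RPM in WT Col-0 and between 13.8 and 21.2 in RTL1 pollen, with 47.1% of its control signal at 24 nt.

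A list of 19 phosphate starvation genes was written after MIR399f had been seen, and so lends no support. Of the 13 tested, 3 lay below (MIR399d, MIR399f and PEPC1), 2 above (MIR399b and PAP17) and the rest in neither set. The median log2 difference was -0.63, against 0.07 over all loci. PEPC1, which codes for a phosphatase induced by phosphate starvation, gave 28.0 and 27.1 RPM in WT Col-0, 11.8 and 5.72 in pLAT52::RTL1 and 8.49 and 19 in pMGH3::RTL1 pollen (unadjusted p = 0.0147, limma). PAP17, a purple acid phosphatase of the same response, gave 11.6 and 9.76 RPM in WT Col-0 and between 16.1 and 29.5 in RTL1 pollen. Its unadjusted p, in the opposite direction to PEPC1, was 0.00974 (limma).

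**Figure D3:**
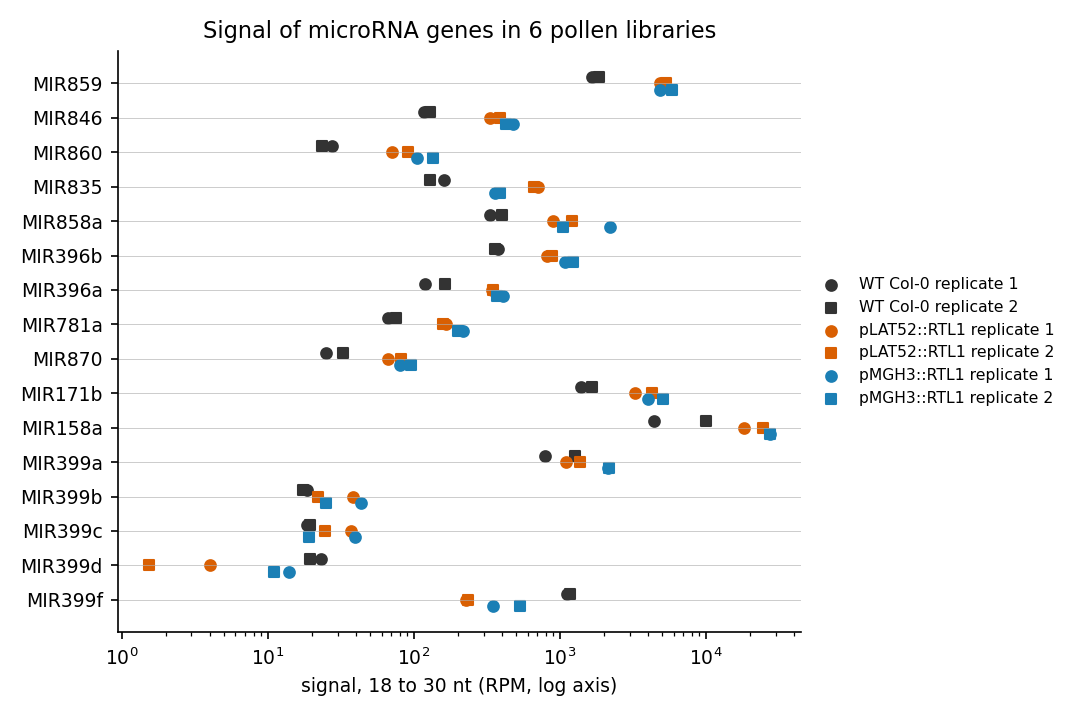
Signal of 16 microRNA genes in each of the 6 libraries (x axis, RPM on a log axis; 1 gene per line), with the construct by colour and the replicate by shape. From MIR859 to MIR158a all RTL1 points lie to the right of both WT Col-0 points, and for MIR399d and MIR399f they lie to the left, at 228 to 529.6 RPM against 1117 and 1161 for MIR399f.

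Outside the microRNA genes, the widest gaps above were mostly at protein-coding genes of low signal. AT3G26934, which codes for an uncharacterized protein, had the widest gap of all loci, 1.74. It gave 21.5 and 20.6 RPM in WT Col-0, 169.8 and 82.0 in pLAT52::RTL1 and 74.3 and 80.3 in pMGH3::RTL1 pollen. One RTL1 library, pLAT52::RTL1 replicate 1, stood over the other 3, and these were still at least 3 times the controls. It rose by 2.13 with separate constructs (adjusted p = 0.0289). The sorted WT FTL pollen gave 61.4 and 49.4 RPM, between both groups.

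Several genes had near-equal RTL1 libraries. AT4G09950, a P-loop nucleoside triphosphate hydrolase, gave 9.47 and 6.50 RPM in WT Col-0 and 30.2, 30.5, 30.8 and 32.1 in the RTL1 libraries. It rose by 1.85 with separate constructs (adjusted p = 0.0291). RPT3, an ATPase subunit of the 26S proteasome, gave 6.45 and 5.42 RPM in WT Col-0 and between 21 and 27.8 in RTL1 pollen. It rose by 1.88 (adjusted p = 0.0300), with 39.2% of the RTL1 signal at 21 nt. The lowest libraries of AT4G09950 and RPT3 rest on 6 and 5 hit-weighted reads, and each gene overlaps another annotated gene. ELP (AT1G12090), an extensin-like protein gene, gave 3.87 and 3.25 RPM in WT Col-0 and between 13.8 and 15.3 in RTL1 pollen. Its lowest library rests on 3 reads, and it did not pass the test (adjusted p = 0.0563).

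Other loci had RTL1 libraries that differed more among themselves. CHX2, a cation/H+ exchanger gene, gave 9.90 and 10.8 RPM in WT Col-0, 158 and 108 in pLAT52::RTL1 and 29.2 and 29.2 in pMGH3::RTL1 pollen. It rose by 3.54 in pLAT52::RTL1 (adjusted p = 0.00149), and in pMGH3::RTL1 pollen the log2 difference was 1.41 (adjusted p = 0.0522). CYP71B38, a cytochrome P450 gene, gave 4.02 and 4.34 RPM in WT Col-0, 13.1 and 37.2 in pLAT52::RTL1 and 28.6 and 14.6 in pMGH3::RTL1 pollen (adjusted p = 0.0703). The non-coding RNA gene AT4G26255 gave 5.83 and 4.95 RPM in WT Col-0 and between 16.8 and 36.7 in RTL1 pollen, and rose by 2.05 (adjusted p = 0.0464).

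The pseudogene AT3G32990 (chr3:13534183-13536711) stood out by RNA length. It gave 1034 and 953 RPM in WT Col-0, 3372 and 3890.0 in pLAT52::RTL1 and 2949.5 and 4304 in pMGH3::RTL1 pollen. RNAs of 23 nt, a length between the usual products of DCL2 and DCL3, held 86.3% of its signal in WT Col-0 and 93.2% in RTL1 pollen. It rose by 1.85 (adjusted p = 0.0280), and its values in sorted pollen were 529 and 80.2 RPM in WT FTL and 323 and 74.3 in nrpd1a-3 FTL. Genes chosen after their values were seen include VHA-A3, a subunit of the vacuolar proton pump, with 23.9 and 27.1 RPM in WT Col-0 and between 59.1 and 73.6 in RTL1 pollen (adjusted p = 0.0325), and AT1G02740, of the MRG chromatin protein family, with 29.7 and 18.4 against 73.2 to 108 RPM (adjusted p = 0.0280).

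Only 88 TE genes lay above. Of these, AT1G54750 was above under all 5 scalings, with 12.5 and 14.1 RPM in WT Col-0 and between 22.9 and 36.1 in RTL1 pollen (adjusted p = 0.0743). AT1G34240 had the widest gap among them, with 167 and 106 RPM in WT Col-0 and between 285 and 384 in RTL1 pollen, and rose by 1.28 (adjusted p = 0.0491), but was above under 2 of the 5 scalings. The most abundant, AT4G06477, gave 49187 and 52874 RPM in WT Col-0 and between 61141 and 69855 in RTL1 pollen, and was below the controls on average under 3 scalings. AT5G35332 gave 248 and 237 RPM in WT Col-0 and between 384 and 502 in RTL1 pollen, mostly as 24-nt RNAs (73.4% and 83.1%).

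As deposited, the loci below were of small change. Over the 569 TE genes below, summed signal was 59516 and 61074 RPM in WT Col-0, 47046 and 41928 in pLAT52::RTL1 and 47877 and 48585 in pMGH3::RTL1 pollen. Their median log2 difference was -0.41. Sorted WT FTL pollen, also without a construct, had 38910 and 29461 RPM at these genes, under every RTL1 library. On the log2 scale both WT FTL libraries lay nearer to the WT Col-0 mean than the RTL1 mean at 2 genes (0.351%). This share was 20.4% for TE genes in neither set, 1.91% for all loci below and 37.0% for all tested loci. The part of sorting in this was not tested. Of the 10 loci below with the widest gaps, 5 were TE genes, 4 were protein-coding genes and 1 was MIR399f. AT3G42250 gave 14.3 and 15.3 RPM in WT Col-0, 6.61 and 5.74 in pLAT52::RTL1 and 6.12 and 7.10 in pMGH3::RTL1 pollen. AT4G07550 gave 20.7 and 23.3 RPM in WT Col-0 and between 7.95 and 13.3 in RTL1 pollen, with 71.2% of its control signal at 24 nt. AT2G12560 gave 34.1 and 34.5 RPM in WT Col-0 and 19.9, 19.7, 22.5 and 21.9 in the RTL1 libraries. The groups were compact at these TE genes, yet the adjusted p with separate constructs was 0.180, 0.125 and 0.146. AT4G04105 and AT5G33410, with 79.3 and 78.4 and with 23.7 and 26 RPM in WT Col-0, had between 45.3 and 54.3 and between 8.76 and 16.2 RPM in RTL1 pollen. All 5 TE genes lay below under every scaling.

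The 4 protein-coding genes among the widest gaps below also lay below under all 5 scalings. AT1G07025, annotated as a mitochondrial carrier, gave 16.6 and 16.3 RPM in WT Col-0, 5.85 and 3.81 in pLAT52::RTL1 and 9.55 and 7.6 in pMGH3::RTL1 pollen. AT5G01080, related to beta-galactosidases, gave 29.7 and 31.6 RPM in WT Col-0, 19.3 and 19.5 in pLAT52::RTL1 and 12.1 and 13.3 in pMGH3::RTL1 pollen. AT3G50250, an uncharacterized protein gene, gave 88.2 and 108 RPM in WT Col-0 and between 56.6 and 60.5 in RTL1 pollen. At these 3 genes 24-nt RNAs were the largest length class in WT Col-0, with 37.5%, 49.9% and 41.0% of the signal. AT3G07350, of the DUF506 family, differed, with 21 and 22 nt at 30.9% and 25% and 24 nt at 17.9%. It gave 21.1 and 36.9 RPM in WT Col-0 and between 10.2 and 14.3 in RTL1 pollen. None of the 4 passed the test with separate constructs (adjusted p = 0.146, 0.0962, 0.109 and 0.106).

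Loci next to rRNA gene arrays had the highest signal of those below. AT2G01008 (chr2:1025-3173) lies 533 bp from the rRNA gene AT2G01010 and gave 15439 and 22709 RPM in WT Col-0, 12926 and 13437 in pLAT52::RTL1 and 12878 and 14138 in pMGH3::RTL1 pollen. AT3G41762 lies 812 bp from the rRNA gene AT3G41768 and overlaps the RNA gene AT3G41761, also below. It gave 5539 and 7059 RPM in WT Col-0 and between 4311 and 5023 in RTL1 pollen. At both, 24-nt RNAs were the largest class, with 49.5% and 50.4% of the RTL1 signal. The WT Col-0 libraries differed from each other by more than the gap at AT2G01008, and its unadjusted p was 0.269 (limma).

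**Figure D4:**
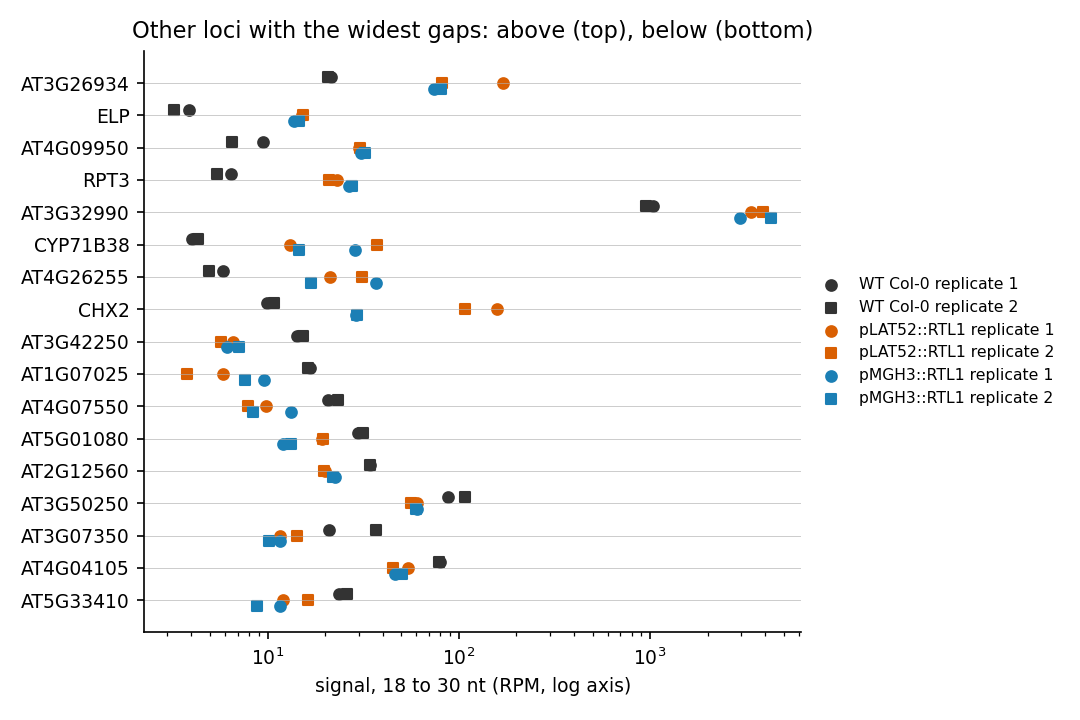
Signal of the loci other than microRNA genes with the widest gaps above (top) and below (bottom) in each of the 6 libraries (x axis, RPM on a log axis; 1 locus per line), with the construct by colour and the replicate by shape. In these values as deposited, separation is wider at the top, as for AT4G09950 (6.50 and 9.47 against 30.2 to 32.1 RPM), than at the bottom, as for AT4G04105 (78.4 and 79.3 against 45.3 to 54.3 RPM).

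Both sets differed in where their loci lie, a measure that the rule did not use. For each locus, the share of TE genes was taken among the annotated loci within 250 kb on either side. Its median was 74.5% for TE genes below, 66.1% for TE genes in neither set and 27.4% for TE genes above. For protein-coding genes it was 8.16% below, 2.29% in neither set and 2.01% above. This is a description of neighbourhoods, in which loci close together share their neighbours and genome region.

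RNA length also differed between the sets. In WT Col-0, the median share of 24-nt RNAs per locus was 49.4% for TE genes below and 49.7% for those in neither set. For protein-coding genes it was 46.0% below, 32.1% in neither set and 21.3% above. Within a set, lengths varied as much between WT Col-0 libraries as between groups. At TE genes below, 24-nt RNAs held 56.7% and 41.6% of the summed signal in WT Col-0, 61.1% and 60.4% in pLAT52::RTL1 and 49.9% and 49.0% in pMGH3::RTL1 pollen. The signal at 21 and 22 nt summed to 11023 and 17591 RPM in WT Col-0, 7365 and 6292 in pLAT52::RTL1 and 12392 and 13930 in pMGH3::RTL1 pollen. At 23 and 24 nt it was 46471 and 38364 RPM in WT Col-0, 37618 and 33745 in pLAT52::RTL1 and 32722 and 32198 in pMGH3::RTL1 pollen. The rule had set all 4 RTL1 totals of each of these genes below both controls, so the lower sums are a description. At 21 and 22 nt the pMGH3::RTL1 libraries lay between the controls.

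Protein-coding genes above summed to 102247 and 124773 RPM in WT Col-0, 285240 and 242572 in pLAT52::RTL1 and 222824 and 213835 in pMGH3::RTL1 pollen. RNAs of 25 to 30 nt, longer than Dicer products, held 3.57% and 1.52% of this signal in WT Col-0, 12.3% and 3.59% in pLAT52::RTL1 and 7.63% and 2.71% in pMGH3::RTL1 pollen. The part of this length difference in the set was not tested beyond counts at single lengths. With 21 and 22 nt alone, 685 loci lay above and 142 below, and with 23 and 24 nt alone 926 and 437.

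**Figure D5:**
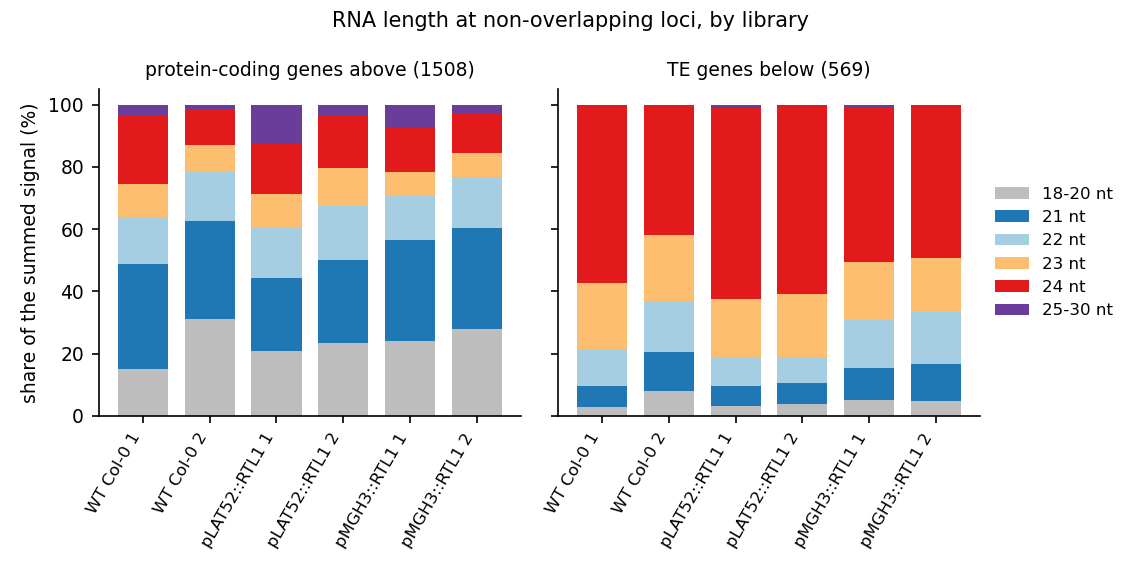
Share of the summed signal by RNA length (y axis, %; colours for length classes) in each of the 6 libraries, at the 1508 protein-coding genes above (left) and the 569 TE genes below (right). The 24-nt class at TE genes below ranges from 41.6% in WT Col-0 replicate 2 to 61.1% in pLAT52::RTL1 replicate 1, and the 25 to 30 nt class at protein-coding genes above is largest, at 12.3%, in pLAT52::RTL1 replicate 1.

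Lists of genes with known roles were read against the sets, where 16.3% of all loci lay above and 7.23% below. Sides in the lists are those of the values as deposited. Of 38 genes of the silencing machinery 23 were tested, and 2 lay above (RDR1 and NRPD1B) and 0 below, with a median log2 difference of 0.02. RDR1 was above under all 5 scalings and NRPD1B under 2. RDR1, an RNA-dependent RNA polymerase, gave 12 and 14.1 RPM in WT Col-0 and 23.7, 27.7, 30.8 and 43.1 in the RTL1 libraries. Of 6 TAS genes tested 4 lay above (TAS1A, TAS1B, TAS3 and TAS3b) and 0 below, at a median of 0.79. Only TAS3 was above under all 5 scalings, with TAS1B and TAS3b above under 2 and TAS1A under 1. TAS1A gave 25924 and 27539 RPM in WT Col-0, 28546 and 33463 in pLAT52::RTL1 and 62868 and 74267 in pMGH3::RTL1 pollen, so that it stood close to the controls in one construct. TAS3, whose tasiRNAs target auxin response factors, gave 236 and 264 RPM in WT Col-0 and between 373 and 688 in RTL1 pollen. No member of any list passed the adjusted test in the pooled comparison.

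Markers of cell types were read in the same way. Of 15 vegetative cell genes tested, 7 lay above and 0 below, at a median of 0.76. They included PPME1, a pectin methylesterase of the pollen tube, with 160.3 and 239 RPM in WT Col-0, 952 and 606 in pLAT52::RTL1 and 309.8 and 339.6 in pMGH3::RTL1 pollen. The calcium-dependent kinase gene CPK34 gave 12.9 and 24.9 RPM in WT Col-0 and between 42.0 and 61.7 in RTL1 pollen. Summed over the list, WT Col-0 replicate 1 had 6979 RPM and replicate 2 had 17042, within the RTL1 range of 13112 to 18870. Of 12 germline genes 1 lay above (MGH3, under 1 of the 5 scalings) and 0 below, at a median of -0.01. MGH3, the histone gene whose promoter drives one of the constructs, gave 19.1 and 14.1 RPM in WT Col-0, 28.7 and 45.3 in pLAT52::RTL1 and 20.7 and 20.5 in pMGH3::RTL1 pollen. Of 11 tapetum genes only 1 was tested and lay in neither set. All 12 photosynthesis genes were tested, and 2 lay above (RBCS1B and RBCS2B), at a median of 0.68, with summed levels of 263 and 621 RPM in WT Col-0 and 406 to 803 in RTL1 pollen. The part of other cell types in the sets was not tested.

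The sorted pollen gave an independent reading of the loci, since the rule did not use these 4 libraries. Over the 7382 loci tested there, 1600 were reduced in nrpd1a-3 FTL pollen (21.7%) and 5 raised (0.0677%, limma), and both mutant libraries lay below both WT FTL libraries at 50.7%. This count of reduced loci fell to 0 without WT FTL replicate 1 and to 3 without WT FTL replicate 2. It was 3416 without nrpd1a-3 FTL replicate 1 and 295 without nrpd1a-3 FTL replicate 2, and the median ratio scaling gave 0. The paper sorted both kinds of grain at the same time, but this fit does not pair the libraries. With replicate as a block, 3544 loci were reduced and 683 raised. The counts that follow are without the block. Among the 838 loci below in RTL1 pollen 636 were tested there, and 341 were reduced (53.6%) and 0 raised. Both mutant libraries lay below both WT FTL libraries at 608 of them (95.6%), and the median log2 difference was -2.23. Of the 1886 loci above, 1348 were tested, 17 were reduced and 4 raised, and the median was 0.60.

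Much of this followed the class of the locus. Of TE genes below, 301 of 494 tested were reduced (60.9%) and both mutant libraries lay below both controls at 488 (98.8%). Of TE genes in neither set, 1041 of 2157 were reduced (48.3%) and 95% lay below. Protein-coding genes below had 34 of 121 reduced (28.1%) and 102 of 121 with both mutant libraries below (84.3%). In protein-coding genes of neither set these shares were 6.94% and 34.3%, and in those above 3 of 1036 were reduced. AT5G01080 gave 12.4 and 8.74 RPM in WT FTL and 1.51 and 1.79 in nrpd1a-3 FTL pollen, and AT1G07025 gave 5.47 and 7.23 against 0 and 0.670. AT2G01008 gave 9367 and 16016 against 5830 and 5404 RPM. Of 65 microRNA genes above that were tested in sorted pollen, 0 were reduced and 0 raised, as among all 111 microRNA genes tested there. On simulated data this design recovered 0 of 100 planted loci, in a setting that differed from the real data as described below. These counts cannot show an absence of change.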

How the data were processed

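The authors sequenced total pollen RNA at BGI as small RNA libraries, kept reads that bowtie matched to TAIR10 without mismatch, and deposited a signal in RPM per gene and RNA length, in which a read with several genomic matches counts in part at each. The signal values sum to more per library than RPM of all mapped reads could, so they are called signal. Values above 30 nt (3704 in WT FTL replicate 1 and 2330 in nrpd1a-3 FTL replicate 1) were left out.

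Signal was summed over 18 to 30 nt, loci that averaged 12 or more hit-weighted reads over the libraries compared were kept, and limma 3.58.1 in R 4.3.3 was run on log2(signal + 1) with a variance trend and Benjamini-Hochberg adjustment, 4 RTL1 against 2 WT Col-0 libraries. Folds on this scale understate the change of low loci. The fit with 3 groups, which gives the adjusted p-values beside named loci, takes the mean of both construct effects. Python 3.11.15, pandas 2.3.3, numpy 2.4.6, SciPy 1.17.1 and matplotlib 3.10.9 were used. The pooled test was checked on simulated data. Of 100 loci planted at a log2 change of 1, 16 were recovered, and of 100 at 2, 53 were, with 1 false call in all. The simulated spread was that within WT Col-0 and within each construct. It left out the difference between constructs, which the pooled fit counts as spread, so recovery in the real data can be lower. In the design of sorted pollen 0 of 100 were recovered at either size. Fewer loci were planted there than the 1600 that the real fit called reduced. Libraries were simulated as independent, although replicate deviations of the 2 sorted groups correlated at 0.57. Recovery in the real sorted data can therefore differ. The fit with 3 groups was not simulated. Coordinates and sequences are from RefSeq TAIR10.1, which held 32798 of 33271 locus names.

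Named by rule were the 10 widest gaps between groups in each direction, the 5 widest among TE genes and among microRNA genes, the 5 loci of highest mean signal in each direction, RTL1, and list members that passed limma. The other 25 named loci were chosen after their values were seen. The members and the gene lists were chosen with earlier results of these data known. Alternatives were 4 other scalings, other filters, lengths and pseudocounts, no variance trend, limma-voom, a replicate block, 1 locus per identical set, 3 groups, and each library left out.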

Additional observations from a re-analysis of the deposited data

Results flagged for a closer look

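Among the 66 named loci, 3 had a single RTL1 library whose gap to the nearest of the other 3 took up more of the range of the 4 than Dixon's critical value allows. Chance alone gives this at about 1 in 20 groups. AT3G26934 had a ratio of 0.919, with pLAT52::RTL1 replicate 1 at 169.8 RPM and the nearest library at 82.0. AT3G50250 had a ratio of 0.874, with pLAT52::RTL1 replicate 2 at 56.6 RPM and the nearest library at 59.96, a small difference on the scale of the controls (88.2 and 108). AT5G32690, a pseudogene that overlaps 11 other loci, had a ratio of 0.834, with pLAT52::RTL1 replicate 2 at 1754 RPM and the nearest at 2069. All these libraries were of pLAT52::RTL1 pollen.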

How the results depend on the processing

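The pooled test gave 0 raised and 0 reduced loci under every alternative except 2. The fit with 3 groups gave 147 and 18, and leaving out libraries gave between 0 and 2 raised and 0 reduced, the 2 without WT Col-0 replicate 1. With the replicate block it gave 0 and 0 (1272 and 75 at an unadjusted p under 0.05). With 3 groups, alternatives added after seeing the data gave 52 raised and 62 reduced loci scaled to summed signal, 125 and 819 scaled to microRNA genes, 159 and 35 scaled to the median ratio and 149 and 169 without structural RNA. Leaving out 1 library then gave 0 to 1197 raised and 0 to 51 reduced. The replicate numbers did not pair the unsorted libraries (correlation of deviations 0.06, 0.08 and -0.004 between groups). The sets without overlap, 1886 above and 838 below, changed to 508 and 1470 scaled to summed signal, 353 and 3196 scaled to microRNA genes, 637 and 2290 scaled to summed signal without structural RNA, 3136 and 1590 with no filter, 868 and 530 at a mean of at least 50 reads, 685 and 142 with 21 and 22 nt alone, and 926 and 437 with 23 and 24 nt alone. The set below was 1265 scaled to the median ratio. Leaving out 1 library gave 2125 to 4033 above, the highest without WT Col-0 replicate 2, and 1107 to 2121 below, the highest without WT Col-0 replicate 1 (1710 without WT Col-0 replicate 2 and 1423 without pMGH3::RTL1 replicate 2), as fewer libraries must then be on one side. In sorted pollen, reduced and raised loci (1600 and 5) were 3244 and 3 scaled to summed signal, 2918 and 61 without structural RNA, 2401 and 13 with a pseudocount of 5, and 3544 and 683 with the replicate block, where the correlation of 0.57 rests on 2 pairs. Both were 0 scaled to the median ratio, with no filter, at 50 reads, with 21 and 22 nt alone, with 23 and 24 nt alone, with a pseudocount of 0.1 and with no variance trend. Raised loci were 56 scaled to microRNA genes and 12 with limma-voom. Leaving out 1 library gave 0 to 3416 reduced and 0 to 254 raised. Of single named loci, only AT4G06477 reversed, to -0.12 scaled to summed signal, -0.20 scaled to microRNA genes, -0.069 without structural RNA and -0.045 with 23 and 24 nt alone. The other alternatives for named loci kept their direction in 1350 cases, and a further 27 loci kept it and passed the threshold in the fit with 3 groups. The causes were not tested. A lowest library of under 10 reads limits what a fold can show. This holds for ELP, MIR399d, AT1G07025, AT4G09950, RPT3, AT4G26255, CYP71B38, AT3G42250, AT4G07550 and PEPC1, among others. AT4G09950, RPT3, RDR1, CPK34 and PAP17 each overlap another annotated gene, so a read may count at both.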
